A study of Rattus norvegicus with 14 samples.

Results

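The comparison set plantaris muscle of rats fed a diet depleted of vitamin D against plantaris of rats on the control diet, gene by gene over the whole array, with the array slide in the model. Arrays were chosen by title, which gave 6 depletion and 4 control arrays of the 14 in the series. The other 4 arrays are repletion muscles (depletion first, then vitamin D given back), and they entered the fit only to estimate slide effects and spread. All rats were Wistar, the control diet held 1000 UI of vitamin D per kg (the unit as the label spells it), and by their titles the muscles are biological replicates. The vitamin D content of the depleted diet, the length of feeding and the age of the rats were not found among the labels. Each muscle was hybridised in 1 colour to 1 array, and nothing more is said of how the muscles were taken, so p-values measure the spread between these arrays. The diet field of depletion replicate 1 names depletion and repletion, against its title. Its group is therefore in doubt, and the counts over all probes and most list medians are given with and without it.

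Vitamin D acts through its hormone, which is made from the dietary or skin-made vitamin by hydroxylation in the liver and then mainly in the kidney. The hormone binds the vitamin D receptor, which pairs with a retinoid X receptor and binds paired half-sites in DNA near target genes. Plantaris is a calf muscle made mostly of fast fibres, and muscle weakness is a known feature of vitamin D lack. Diet, serum calcium and the hormone's action on other organs can all reach muscle, and an array of whole muscle reads the fibres together with blood, vessel, nerve and immune cells.

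A level here is the log2 of a probe's signal over its array's 75th percentile, so each unit is a doubling. A difference is depletion minus control in log2 units, with the standard error (SE) from limma's fit, and p is unadjusted unless it is called adjusted. In bulk muscle, fewer cells of a type and less RNA per cell cannot be told apart. Slide 1 held control replicates 1 and 2 with depletion replicate 1, slide 2 carried control replicate 3 beside depletion replicate 2, and slide 4 paired control replicate 4 and depletion replicate 5. Depletion replicates 3 and 4 (slide 3) and 6 (slide 5) shared a slide with repletion muscles but with no control, so they bear on the comparison only through those repletion arrays. Between 82.8% and 88.1% of an array's spots were well above background, with a 75th percentile of 1781 to 2387 intensity units. Of the 9 muscle fibre markers listed, 8 were measured, and all of those were well above background on all 10 arrays. The number of arrays limits the precision.

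Before any diet difference, 2 of the 6 depletion arrays stood apart from the other 12 arrays of the series. Depletion replicates 1 and 2 carried bright signals of transcripts that the liver makes for the blood. Alb, which encodes serum albumin, was at 0.93 and 1.06 on these arrays. On the other depletion arrays, 3 to 6, it was at -8.47, -6.37, -6.30 and -9.32, and on control arrays 1 to 4 at -8.63, -6.16, -6.79 and -7.72. The highest of the remaining 12 arrays, a repletion array, was at -5.67. The Alb probe sits on chromosome 14, from 19126980 to 19127039 (rn4, minus strand, as the array files give it), and its first 30 of 60 bases, which identify the transcript read, are:
Alb: actcatctcttctgttggtgtaaaaccaac

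Ttr, the carrier of thyroid hormone and of retinol-binding protein, was at -1.01 and 0.27 on depletion replicates 1 and 2. On the other depletion arrays it lay between -5.57 and -4.91, and in control between -5.31 and -4.90. Apoc3, an apolipoprotein of triglyceride-rich particles, was at -2.44 and -2.69 on the same 2 arrays. It lay between -7.33 and -6.61 on depletion arrays 3 to 6 and between -7.38 and -6.77 in control. For each of these genes the 2 arrays lay above all others, and the other 4 depletion arrays overlapped control.

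Over the array, 17 of 17429 genes (0.0975%) had both depletion replicates 1 and 2 above the other 12 arrays by more than 1. Among them were Alb, Ambp, Ttr, Fgb, Apoc3, C3, Itih4, Fga, Azgp1, C5, Hpx, Fgg, F12, Hp, Kng1 and Apoa4. These encode plasma proteins, apolipoproteins, fibrinogen chains, and complement and clotting factors. In the opposite direction, 0 genes had both arrays below the other 12 by more than 1. A list of 36 liver genes drawn up after the values of Alb were seen had 33 measured members, of which 18 had both arrays above the other 12, against 228 of all 17429 genes (1.31%). Ahsg and Plg, also plasma proteins, did not stand apart: Ahsg was at 0.54 and 0.02 on the 2 arrays and between 0.08 and 0.57 on the other 12. Fabp1, the liver fatty acid binding protein, named here after its values were seen, was at -3.44 and -3.13 on the 2 arrays. It was also high on depletion replicate 5, at -3.97, and lay between -7.09 and -6.10 on the other 11.

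**Figure D1:**
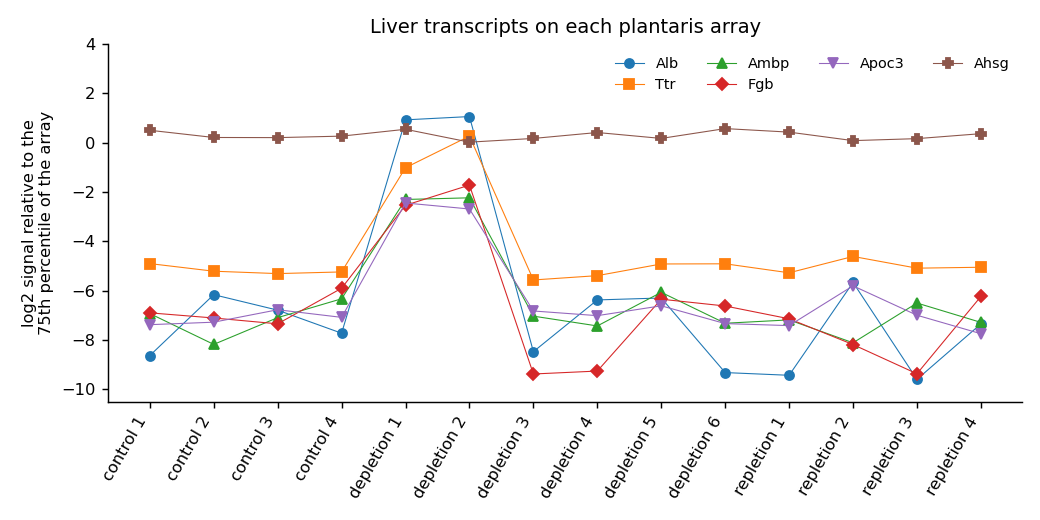
Log2 signal relative to the 75th percentile of the array (vertical axis) of 6 liver genes on each of the 14 arrays (horizontal axis, by diet and replicate), 1 marker per gene. Depletion replicates 1 and 2 stand above all other arrays for Alb, Ttr, Ambp, Fgb and Apoc3, and not for Ahsg.

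The 4 genes of other organs measured here did not share this pattern. Umod, a kidney tubule protein, differed by -0.21, Slc12a1, a kidney salt transporter, by 0.14, Ins1, an insulin gene, by -0.15 and Gfap, an astrocyte filament, by -0.14. These 2 arrays are the depletion arrays of slides 1 and 2, that is, of 2 of the 3 slides that held both diets. A list of 10 genes of other organs, liver included, had a median difference of 1.34 over 9 measured members, and 0.15 without these 2 arrays. It was 0.84 without depletion replicate 1 alone, 0.21 with normexp background correction, 0.44 on the authors' values and -0.14 over the members well above background on all arrays. With them, the liver list had a median difference of 0.64, with 30 of 33 genes higher. With normexp the list median was 0.19, where the median over all genes was -0.13. Without these 2 arrays the median of the liver list was 0.08, with 21 of 33 higher. Values without depletion replicates 1 and 2 are therefore printed beside the results below, a setting chosen after the data were seen. In that setting slide 4 alone holds both diets, with 1 array of each. The other depletion arrays there are compared with control only through repletion arrays. The part that these signals have in other differences was not tested.

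Across the whole array no gene passed the test between the diets. Of 26391 probes tested with limma, 0 had an adjusted p under 0.05 in either direction, and the lowest adjusted p was 0.832. At an unadjusted p under 0.05, 566 probes were higher after depletion (2.14%) and 709 lower (2.69%), together 4.83%. With no slide term the share was 3.69%. Without depletion replicate 1, limma again called 0 probes, and 336 (1.27%) were higher and 465 (1.76%) lower at an unadjusted p under 0.05. Without depletion replicates 1 and 2 it called 0, with 477 (1.81%) higher and 467 (1.77%) lower, and the lowest adjusted p was 0.159. The median over genes of the SE was 0.171 and of the half-width of the 95% interval 0.384. Differences were small against that: the median absolute difference over 17455 genes was 0.139, and 190 genes differed by more than 1.

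Within slides 1, 2 and 4, which hold both diets and share no array, depletion minus control was computed without any model. Of 17355 genes, 4613 (26.6%) had the same sign on all 3 slides, of which 1743 (10%) were higher and 2870 (16.5%) lower. Across genes the differences of slides 1 and 2 had a Pearson r of -0.03 (Spearman rho -0.11), those of slides 1 and 4 an r of 0.13 (0.17), and those of slides 2 and 4 an r of -0.04 (-0.03). Each point is a gene, the genes of a slide share its arrays, and genes are not independent replicates. Liver genes lay together in the upper right of slides 1 and 2, and not of slide 4. On slide 1 Alb differed by 8.32, on slide 2 by 7.85 and on slide 4 by 1.43.

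**Figure D2:**
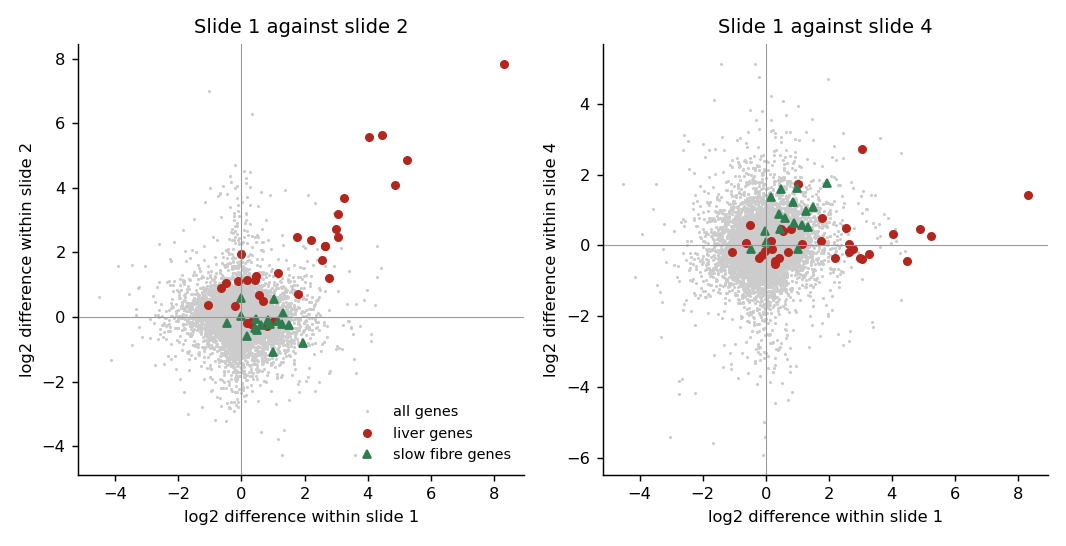
Log2 difference, depletion minus control, within slide 1 (horizontal axes) against slide 2 (left) and slide 4 (right), 1 grey point per gene, with liver genes as red circles and slow fibre genes as green triangles. Liver genes extend to the upper right on slides 1 and 2, up to 8.32 and 7.85 for Alb, and most slow fibre genes are above 0 on slides 1 and 4 but not on slide 2.

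The genes named next are those with the smallest p among genes well above background on all 10 arrays and of the same sign on slides 1, 2 and 4. None passed, and limma's adjusted p was 0.832 for each of them. They were chosen on this comparison, so their values describe it and support nothing further. For the leading members the first 30 of the 60 probe bases are given, since they say which transcript was read; an exon or untranslated region is not assigned here because the probes' build (rn4) came without an annotation:
Hnrnpa1: ctcagataaaataagagatgggaatgaagc
Trit1: agataccatacagtgaaactgagaacaaga
Birc6: cttaaggagatccagtttaattcaaggtga
Klhl30: ctgtgtttacatagctgcttctgggatgaa
Fos: caaaaaatcaaaagcaaccgcatggagtgt

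Hnrnpa1 encodes an RNA-binding protein that guides splice site choice. Its probe (chromosome 7, 142154435 to 142154494, plus strand) gave 2.84, 2.44, 2.12, 2.48, 2.08 and 2.33 on depletion arrays 1 to 6, against 1.72, 1.76, 1.83 and 1.45 in control. All 6 depletion arrays lay above all 4 control arrays, which 56 of 17455 genes (0.321%) showed. The difference was 0.76 ± 0.14 (SE, n = 6 and 4), and 0.61 ± 0.15 without depletion replicates 1 and 2. A second Hnrnpa1 probe differed by 0.19, so the probes of this gene disagree in size. Hnrnpa1 belongs to a family with many processed copies in the genome, whose transcripts the array may not set apart.

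Fos, a transcription factor made within minutes of a stimulus, was at 1.12, 1.12, 2.22, 1.31, 0.70 and 1.68 on depletion arrays 1 to 6 and at -0.63, -0.19, 0.36 and -0.15 in control. Here too the groups did not overlap. The difference was 1.34 ± 0.34 (limma, adjusted p = 0.832), 1.40 without depletion replicate 1 and 1.57 ± 0.49 without replicates 1 and 2. The Fos probe lies on chromosome 6 at 109561941 to 109562000 (plus strand).

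The other genes with higher estimates had varied roles. Ttc9, a protein with tetratricopeptide repeats, was at -0.35 to 0.47 after depletion (median 0.04) and at -0.41, -0.60, -0.89 and -0.88 in control, a difference of 0.76 ± 0.18. Cbr1, a carbonyl reductase, was at 1.00 to 1.40 (median 1.17) against 0.87, 0.88, 0.72 and 0.76, a difference of 0.43 ± 0.11. Plat, tissue plasminogen activator, was at 0.39 to 0.73 (median 0.65) against 0.23, 0.01, 0.23 and 0.22, a difference of 0.49 ± 0.12. In these 3 genes every depletion array lay above every control array. Rfx7, a DNA-binding factor, differed by 0.46 ± 0.11 with 1 depletion array inside the control range. Mns1, a sperm flagellum and cilium protein, differed by 0.95 ± 0.23. Its depletion replicates 2, 4, 5 and 6 lay inside the control range of -3.78 to -2.28.

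Several of the higher genes were highest on the 2 arrays with liver signals or sat at low levels. Bhmt, which remethylates homocysteine in liver and kidney, was highest on depletion replicates 1 and 2, at -1.44 and -1.27, and between -1.80 and -1.70 on depletion arrays 3 to 6. Control arrays gave -1.89, -2.08, -1.95 and -2.10, so the groups did not overlap with or without those 2 arrays, and the difference went from 0.50 ± 0.11 to 0.36 ± 0.13. C3, the central complement protein, was at -2.85 and -2.54 on the same arrays and at -5.56, -4.80, -4.77 and -6.47 on the others, which lay on both sides of the control range of -5.98 to -5.69. Its difference was 2.06 ± 0.52, and 0.88 ± 0.40 without the 2 arrays. It was 0.96 with normexp and 1.07 on the authors' values.

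Gnat3, the taste cell transducin subunit, was at -4.90 to -3.15 after depletion (median -4.26) and at -5.80, -6.14, -5.15 and -5.98 in control. The groups did not overlap and the difference was 1.79 ± 0.45, but it was 0.61 with normexp background correction and 0.82 on the authors' values. Cxcl1, a neutrophil-attracting chemokine, was at -5.81 to -4.52 (median -5.13) against -5.80, -6.15, -5.96 and -6.02. Its difference of 1.02 ± 0.26 was 0.20 with normexp and 0.44 on the authors' values. Rsad2, an antiviral enzyme induced by interferon, differed by 1.22 ± 0.31. Depletion replicate 5 was its highest array, at -0.27, and the other depletion arrays lay between -2.37 and -1.46, against -3.33 to -2.02 in control.

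Among the genes with lower estimates, Trit1 had the smallest p of all genes named. It encodes the enzyme that adds an isopentenyl group to certain tRNAs. Trit1 was at -1.88, -1.89, -2.09, -2.12, -2.43 and -2.18 on depletion arrays 1 to 6 and at -1.45, -1.39, -1.30 and -1.60 in control (chromosome 5, 142371866 to 142371925, plus strand). All 6 depletion arrays lay below all 4 control arrays, as for 92 of 17455 genes (0.527%). The difference was -0.60 ± 0.11 (limma, adjusted p = 0.832), and -0.70 ± 0.14 without depletion replicates 1 and 2.

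Birc6, a large ubiquitin ligase that restrains apoptosis and autophagy, was at -2.18, -2.71, -2.58, -2.70, -2.74 and -3.44 on depletion arrays 1 to 6. In control it was at -1.93, -1.81, -2.04 and -1.98, above every depletion array. The difference was -0.65 ± 0.16, and it was wider without depletion replicates 1 and 2, at -0.90 ± 0.18. Its position is chromosome 6, 20655096 to 20655155 (minus strand). Depletion replicate 1, the array of doubtful label, was the one closest to control.

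Klhl30, a kelch-repeat protein, was at 1.62, 1.84, 1.91, 2.14, 2.14 and 1.86 on depletion arrays 1 to 6 against 2.25, 2.21, 2.85 and 2.42 in control (chromosome 9, 90587917 to 90587976, plus strand). The groups did not overlap, and the difference was -0.58 ± 0.13, with -0.58 on a second probe. Deptor, an inhibitor bound to mTOR, was at -2.40, -0.98, -1.91, -1.59, -1.43 and -1.30 against -0.74, -0.80, -0.74 and -0.64 in control. Its groups did not overlap either, and the difference of -0.88 ± 0.22 was -0.56 without depletion replicate 1, the lowest array. The groups were also apart for 4933427D14Rikl, a gene of no role given here, at -6.94 to -6.23 after depletion (median -6.58) and -6.08 to -5.80 in control. Its difference was -0.68 ± 0.16, and -0.23 on the authors' values.

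The remaining 7 genes with lower estimates had overlapping groups. Pi15, a secreted peptidase inhibitor, differed by -0.77 ± 0.16 and D2hgdh, a mitochondrial 2-hydroxyglutarate dehydrogenase, by -0.78 ± 0.20. Chst4 and B4galnt1, which build sulfated glycans and gangliosides, differed by -0.88 ± 0.22 and -0.46 ± 0.13, and St3gal1, a sialyltransferase, by -0.47 ± 0.13. Tbc1d24, a vesicle traffic protein, differed by -0.62 ± 0.17 and Phospho2, a phosphatase, by -0.58 ± 0.16. Without the slide term D2hgdh differed by -0.49 and B4galnt1 by -0.15. On the authors' values Pi15 differed by -0.27, Chst4 by -0.28, St3gal1 by -0.23 and Tbc1d24 by -0.20.

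For Chst4, Tbc1d24 and B4galnt1, depletion replicates 1 and 2 were the 2 lowest depletion arrays. Chst4 was at -6.57 and -6.60 on these 2 arrays and between -5.16 and -4.45 on depletion arrays 3 to 6, with control at -5.59 to -3.88. Without the 2 arrays Chst4 differed by -0.49 ± 0.24. With the slide term dropped as well, these 3 of the 12 had the opposite sign: Chst4 to 0.12, Tbc1d24 to 0.02 and B4galnt1 to 0.17.

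**Figure D3:**
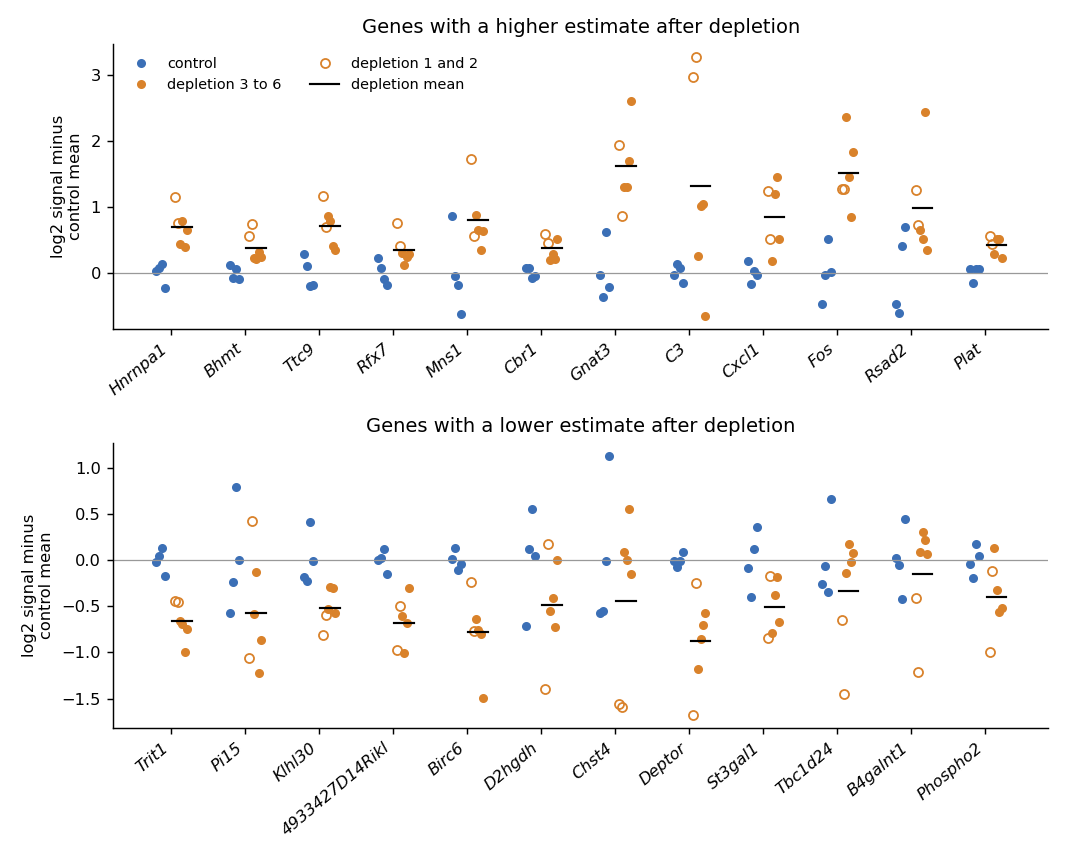
Log2 signal minus the control mean (vertical axes) for the 12 genes with the smallest p among higher (top) and lower (bottom) estimates, 1 point per array: control blue, depletion replicates 3 to 6 filled orange, depletion replicates 1 and 2 open orange, depletion mean as a black bar. For Hnrnpa1, Fos, Trit1 and Birc6 no depletion array falls inside the control range, while for C3 and Chst4 the open points lie apart from the filled ones.

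Gene lists were next described by their counts and medians, beside a median of -0.02 over all 17455 genes, of which 46.3% were higher by the estimate. At an unadjusted p under 0.05, 2.14% of genes were higher and 2.61% lower. The lists were drawn up with earlier results of these data known. No member of any list passed limma's test after adjustment.

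Slow fibre genes had the widest shift of the muscle lists, with 16 of 17 members higher by a median of 0.53 and 5 past an unadjusted p under 0.05. Myh7 encodes the slow myosin heavy chain and was at 7.51, 6.72, 6.98, 7.62, 7.06 and 7.45 on depletion arrays 1 to 6 and at 6.08, 6.66, 6.85 and 6.49 in control (chromosome 15, 33073880 to 33073939, minus strand). Depletion replicate 2 lay inside the control range, and the difference was 0.73 ± 0.31. Myh7b, a related myosin, differed by 0.79 ± 0.31. Ankrd2, a stretch-responsive ankyrin protein of slow fibres, differed by 1.05 ± 0.45, and by 0.66 without depletion replicate 1. In control, Ankrd2 was at 5.67 on replicate 3 and at 4.31 to 4.39 on the others.

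The shift of the slow list differed between slides: its median was 0.85 on slide 1, -0.21 on slide 2 and 0.77 on slide 4. It was 0.47 without depletion replicate 1 and 0.83 without depletion replicate 2. Without both it was 0.93, with 16 of 17 higher and 5 past an unadjusted p under 0.05, against 1.67% of all genes higher and 1.71% lower in that fit. There Myh7 differed by 0.98 ± 0.33 and the slow troponins Tnni1, Tnnc1 and Tnnt1 by 1.11, 1.03 and 0.71. Only slide 4 holds both diets in that fit. Over all arrays, the 7 slow fibre markers, Myh7 and these troponins among them, were all higher, by a median of 0.74. With no slide term the list median was 0.48 over all arrays and 0.57 without both replicates, where Myh7 differed by 0.76. The mean deviation of the list from its own average was -0.49 to -0.07 on the control arrays. It was 0.41, -0.26, -0.18, 0.53, 0.32 and 0.41 on depletion arrays 1 to 6, so replicates 2 and 3 overlapped control. Fast fibre genes differed little: 11 of 16 were lower, by a median of -0.06, with 0 past an unadjusted p under 0.05, and the median was 0.02 without depletion replicate 1 and 0.09 without both replicates 1 and 2. Myh4, the fastest myosin, differed by -0.21 ± 0.47.

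Sarcomere genes of developing and regenerating muscle were higher in 11 of 11 cases, by a median of 0.48, with 1 past an unadjusted p under 0.05 (2.14% of all genes were higher). Ncam1, an adhesion protein of young and denervated fibres, differed by 0.80 ± 0.35. Sln, which restrains the calcium pump, differed by 0.62 ± 0.43, and by 0.23 without control replicate 4 or depletion replicate 5, the arrays of slide 4. Actc1, cardiac actin, was at 2.91, 3.13, 3.45, 5.49, 4.77 and 4.66 on depletion arrays 1 to 6 and at 3.38, 2.03, 3.77 and 2.51 in control. The last 3 depletion arrays lay above control and the first 3 inside its range. Its difference of 1.02 ± 0.74 became 2.50 ± 0.68 without depletion replicates 1 and 2 and 0.58 without either array of slide 4. With depletion replicates 1 and 2 left out and no slide term it was 1.66. Within slides the list median was 0.51, -0.50 and 1.36. It was 0.42 without depletion replicate 1, with 9 of 11 higher, 0.87 without replicates 1 and 2, with 10 of 11, and 0.23 without control replicate 4 and 0.80 without control replicate 3. With no slide term the list median was 0.395 over all arrays and 0.52 without depletion replicates 1 and 2.

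Immediate early genes, transcribed within minutes of stretch, injury or hormone signals, were higher in 24 of 30 cases, by a median of 0.29, with 3 past an unadjusted p under 0.05 (2.14% of all genes were higher). Besides Fos, Ier5 differed by 0.80 ± 0.23 and Btg2, which slows proliferation, by 0.61 ± 0.24. Btg2 was at 1.88, 2.34, 2.56, 3.03, 1.94 and 2.96 on depletion arrays 1 to 6 and at 1.72, 1.44, 1.90 and 1.34 in control, so only depletion replicate 1 reached into the control range. Members were uneven: Jun differed by -0.07, Fosb by -0.07, Nr4a1 by -0.06 and Egr3 by -0.15. Within slides the median was 0.16, -0.07 and 0.58. Without depletion replicates 1 and 2 it was 0.50, with 27 of 30 higher and 7 past an unadjusted p under 0.05 (1.67% of all genes). Leaving out single arrays moved it between 0.12 (without control replicate 4) and 0.46 (without control replicate 3), with 0.16 without control replicate 2 and 0.23 without depletion replicate 1. With normexp it was 0.19, where the median over all genes was -0.13. With no slide term the list median was 0.31 over all arrays and 0.37 without depletion replicates 1 and 2. The mean deviation of the list was -0.05, -0.18, 0.17, 0.41, 0.03 and 0.63 on depletion arrays 1 to 6, with control at -0.53 to 0.06. Depletion replicates 1, 2 and 5, which share a slide with a control array, lay inside the control range. Replicates 3, 4 and 6, on slides without control, lay above it.

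Promoters were available for 20 of the 30 immediate early genes (RefSeq, GRCr8, 250 bases before to 50 after the start). The cAMP response element TGACGTCA, on either strand, was in 5 of them: Btg2, Dusp1, Ier2, Jund and Maff. It was in 525 of all 27457 promoters (1.91%). Of those 5 genes Btg2 had the largest difference, and Dusp1, Ier2, Jund and Maff differed by 0.10, 0.18, 0.12 and 0.20. The AP-1 site TGACTCA was in 0 of the 20 and in 4.53% of all promoters. The upstream 120 bases of the Btg2 promoter (GRCr8, chr13:48087821-48087940, minus strand) are shown with the response element in capitals:
Btg2: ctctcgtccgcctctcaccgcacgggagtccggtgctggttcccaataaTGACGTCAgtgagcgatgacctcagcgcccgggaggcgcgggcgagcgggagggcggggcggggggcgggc

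Ribosomal protein genes were higher in 75 of 76 cases, by a median of 0.19, Rpl15 being the exception at -0.05. Of the 76, 14 were higher past an unadjusted p under 0.05, against 2.14% of all genes. All depletion arrays lay above all control arrays for 7 of them, against 0.321% of all genes. The list as a whole overlapped control: its mean deviation was -0.13 on depletion replicate 2, with control at -0.16 to -0.02. On the other depletion arrays it lay between 0.04 and 0.28. Rps7, of the small subunit, was at 5.56, 5.60, 5.68, 5.83, 5.77 and 5.53 on depletion arrays 1 to 6 and at 5.33, 5.32, 5.35 and 5.27 in control. Its difference was 0.30 ± 0.09. Rplp0, of the stalk, differed by 0.28 ± 0.10, also with groups that did not overlap. The list median was 0.35 on slide 1, 0.03 on slide 2 and 0.16 on slide 4, and it was 0.12 without depletion replicate 1, with 73 of 76 higher, and 0.26 without replicate 2. Without both it was 0.19, with 6 past an unadjusted p under 0.05 (1.67% of all genes were higher), 75 of 76 higher and Rpl10 as the exception at -0.02. Ribosomal protein genes have many near-identical copies in the genome, which the array may not set apart.

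Splicing factor genes were higher in 32 of 40 cases, by a median of 0.15, with 4 past an unadjusted p under 0.05 (2.14% of all genes were higher). Besides Hnrnpa1, the members past that p were Tra2b (0.36 ± 0.11), Hnrnpa3 (0.45 ± 0.16) and Srsf3 (0.31 ± 0.13). The median was 0.09 without depletion replicate 1 and 0.10 without replicates 1 and 2, with 34 of 40 higher. Within slides it was 0.22, 0.08 and 0.12.

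Glycolysis and glycogen genes had the lowest median, -0.19, with 28 of 32 lower and 1 past an unadjusted p under 0.05 (2.61% of all genes were lower). That gene was Pkm, pyruvate kinase, at 3.17, 4.08, 4.21, 3.56, 3.68 and 3.57 on depletion arrays 1 to 6 and at 3.97, 4.40, 4.51 and 4.61 in control. Depletion replicates 2 and 3 lay inside the control range, and the difference was -0.69 ± 0.27. Pgm1, phosphoglucomutase, differed by -0.39 ± 0.20. Ldhb, the lactate dehydrogenase subunit of oxidative fibres, differed the other way, by 0.43, with no value on control replicate 2. Within slides the list median was -0.29, -0.05 and -0.54, and without depletion replicates 1 and 2 it was -0.22, with 28 of 32 lower and 0 past an unadjusted p under 0.05. It was -0.15 without depletion replicate 1, -0.10 without control replicate 4 and -0.30 without control replicate 1.

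For genes of respiration and the citric acid cycle, the sign of the median turned with depletion replicate 1. Complex I genes were lower in 30 of 37 cases, by a median of -0.11, and pyruvate dehydrogenase and citric acid cycle genes in 25 of 30, by -0.14. Without depletion replicate 1 these medians were 0.09 and 0.04, and without both replicates 1 and 2 they were 0.07 and 0.00. The mean deviation of complex I genes was -0.51 on that array and between -0.09 and 0.14 on the other 9. Mitochondrial biogenesis and dynamics genes, lower in 18 of 26 cases, kept their sign, with a median of -0.08 and of -0.01 without that array. Fibroblast and matrix genes went from a median of -0.13 to 0.12.

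Of the immune and blood cell lists, macrophage, complement and red blood cell genes had the highest medians, each lower without depletion replicates 1 and 2. T and NK cell genes had a median of -0.07 (8 of 18 higher), B and plasma cell genes of 0.03 (6 of 9), and neutrophil and mast cell genes of 0.11 (10 of 17), the last -0.16 without depletion replicates 1 and 2. Macrophage genes were higher in 23 of 26 cases, by a median of 0.52, with 5 past an unadjusted p under 0.05 (2.14% of all genes were higher). The median was 0.24 without depletion replicate 1 and 0.47 without depletion replicate 2. Without both it was 0.13, with 18 of 26 higher and 1 past an unadjusted p under 0.05 (1.67% of all genes were higher). The mean deviation of the macrophage list was 0.60 and 0.46 on those 2 arrays and -0.63, 0.40, 0.20 and -0.54 on depletion arrays 3 to 6, with control at -0.29 to 0.05. The depletion arrays thus lay on both sides of control. Of the 9 defining macrophage markers, all were well above background on all 10 arrays.

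Aif1, a calcium-binding protein of macrophages, differed by 0.57 ± 0.24 and Fcgr1a, an antibody receptor, by 0.65 ± 0.26. For both, depletion replicates 3 and 6 lay inside the control range. Without depletion replicates 1 and 2, Aif1 differed by 0.58 ± 0.34 and Fcgr1a by 0.60 ± 0.39. With the slide term dropped as well, these differences were 0.39 and 0.29. Fcgr3a, another antibody receptor, differed by 0.80 ± 0.22, but by 0.36 without those arrays and by -0.05 with normexp.

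Complement genes were higher in 18 of 23 cases, by a median of 0.29, which was 0.16 without depletion replicate 1 and 0.00 without the 2 arrays. With normexp C5 differed by 0.25 in place of 1.32. C5 was at -4.58 and -4.21 on them and at -7.20 to -6.23 on the other depletion arrays, inside a control range of -7.28 to -6.04. Serping1, the inhibitor of the first complement proteases, differed by 0.42 ± 0.13, by 0.38 without the 2 arrays and by 0.20 with no slide term. Red blood cell genes were higher in 9 of 12 cases, by a median of 0.47, which was 0.17 without depletion replicate 1 and -0.04 without both. Hbb, a beta globin, was at 6.42, 5.47, 5.46, 5.37, 5.18 and 4.38 on depletion arrays 1 to 6 and at 5.21, 4.76, 4.65 and 4.11 in control. Its difference of 0.84 ± 0.35 was 0.53 without depletion replicate 1 and 0.30 without both. Slc4a1, the red cell anion exchanger, and Alas2, the erythroid haem synthesis enzyme, were highest on depletion replicate 1, at -3.18 and -0.33. They differed by 0.15 and 0.09 without the 2 arrays. How far blood or liver transcripts on these arrays enter the immune lists was not tested.

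The interferon, cytokine and antigen presentation lists behaved differently from one another. Interferon response genes were higher in 30 of 36 cases, by a median of 0.22, with 4 past an unadjusted p under 0.05 (2.14% of all genes were higher). The median was 0.27 without depletion replicate 1 and 0.29 without replicates 1 and 2, with 8 past an unadjusted p under 0.05 there (1.67% of all genes). It was 0.17 without depletion replicate 5, and -0.07, 0.27 and 0.49 within slides 1, 2 and 4. The mean deviation of the list was -0.11, 0.14, 0.09, -0.13, 0.56 and -0.05 on depletion arrays 1 to 6, with control at -0.25 to -0.02. Depletion replicates 1, 4 and 6 thus lay inside the control range, and replicate 5 was the highest. Cxcl10, a T cell-attracting chemokine, was at -1.66 on depletion replicate 5 and between -4.83 and -3.97 on the other 5, with control at -5.75 to -4.40. Its difference of 1.38 ± 0.61 was 0.41 without depletion replicate 5, and also 0.41 without control replicate 4, since each removal takes slide 4 out of the comparison.

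Cytokine, chemokine and NF-kB genes were higher in 29 of 39 cases, by a median of 0.18, with 7 higher and 1 lower past an unadjusted p under 0.05. The median was 0.18 without depletion replicate 1 and 0.19 without the 2 arrays, where 2 were higher and 0 lower past that p, and 0.10 without control replicate 4. With normexp the median was 0.03, where the median over all genes was -0.13. By array, the list deviated from its own average by 0.27, 0.13, -0.29, 0.24, 0.38 and -0.23 on depletion arrays 1 to 6. Control lay at -0.16 to -0.05, so depletion replicates 3 and 6 were below every control array and the others above. Ccl3, a macrophage-attracting chemokine, differed by 1.78 ± 0.33, but was well above background on 3 of 4 control arrays and differed by 0.38 with normexp. Tnf differed by 0.81 ± 0.29, and by 0.29 with normexp. MHC and antigen presentation genes were higher in 17 of 20 cases, by a median of 0.20 (0.13 without depletion replicate 1 and 0.05 without the 2 arrays). In that list Psmb9, an immunoproteasome subunit, differed by 0.36 ± 0.12 (0.17 without the 2 arrays), Tap2, a peptide transporter, by 0.65 ± 0.25 and RT1-DMa, a class II chaperone, by 0.31 ± 0.16.

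**Figure D4:**
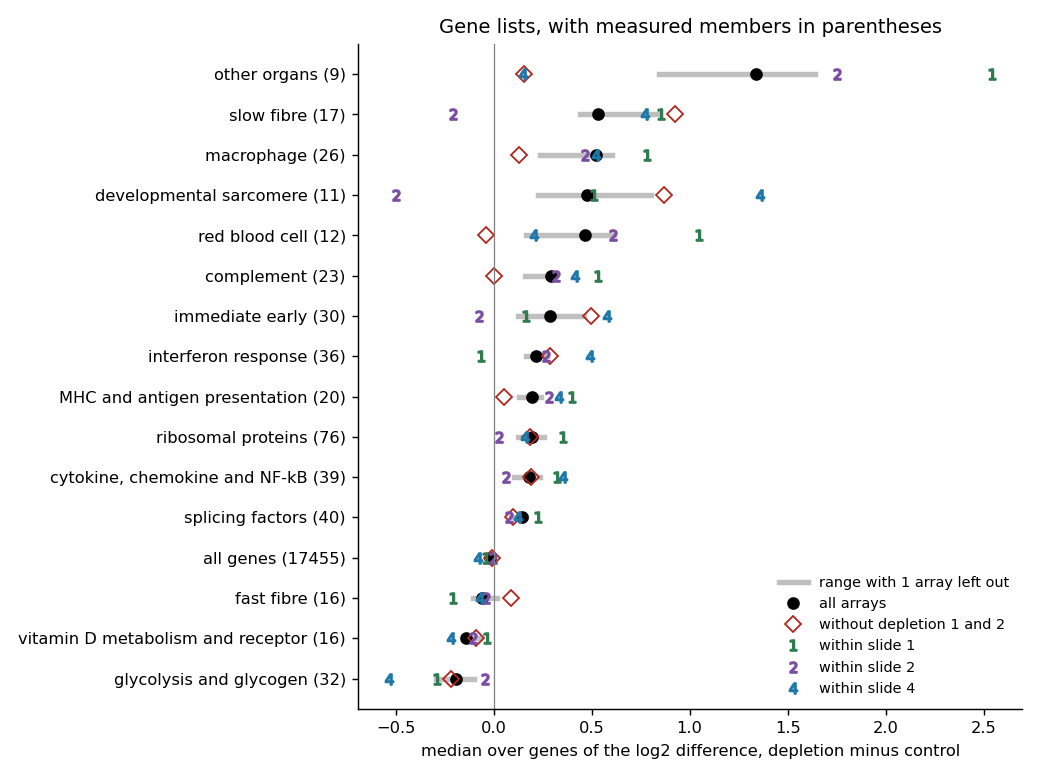
Median over member genes of the log2 difference, depletion minus control (horizontal axis), for 15 gene lists and all genes, with measured members in parentheses. Medians are shown for all arrays (black), without depletion replicates 1 and 2 (red diamonds) and within slides 1, 2 and 4 (numerals). Grey bars give the range when 1 array is left out, which for all genes is only -0.025 to -0.002. The list of genes of other organs and the macrophage, red blood cell and complement lists move toward 0 without the 2 arrays, while slow fibre, developmental sarcomere and immediate early lists move away from it. With no slide term (not drawn), these last lists moved from 0.48, 0.395 and 0.31 to 0.57, 0.52 and 0.37.

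No gene of the vitamin D pathway passed the test. Of 20 listed genes of vitamin D metabolism and reception, 16 were measured, of which 12 were lower and 4 higher, with a median of -0.14 (-0.10 without depletion replicate 1, -0.09 without replicates 1 and 2 and -0.07 without control replicate 4). The 24-hydroxylase Cyp24a1, the 25-hydroxylase Cyp2r1, Cyp3a9 and the carrier Gc had no probe that passed the filter on dim probes. Vdr, the receptor, was at -4.02, -5.53, -3.87, -3.51, -4.42 and -3.92 on depletion arrays 1 to 6 and at -4.13, -4.24, -4.78 and -3.09 in control (chromosome 7, 136567655 to 136567714, minus strand). The groups overlapped, with depletion replicate 2 below and control replicate 4 above all others. The difference was -0.47 ± 0.23 (limma, adjusted p = 0.832), but -0.15 with no slide term, -0.69 without depletion replicate 1 and -0.17 without control replicate 4 or depletion replicate 5, and 0.17, -0.74 and -1.34 within slides 1, 2 and 4. The 95% interval ran from -0.99 to 0.05.

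The retinoid X receptors, its partners, differed by -0.13 ± 0.15 (Rxra), -0.10 ± 0.13 (Rxrb) and -0.22 ± 0.29 (Rxrg). Among the enzymes, Cyp27a1, which can hydroxylate vitamin D in the liver, differed by -0.48 ± 0.21, and Cyp27b1, which makes the hormone, differed by -0.06 ± 0.12. Cyp27b1 gave -2.65 to -1.60 after depletion and -2.68 to -1.60 in control, nearly the same range. Pdia3, proposed as a membrane receptor of the hormone, differed by -0.18 ± 0.21, and Pth1r, the parathyroid hormone receptor, by -0.23 ± 0.14. Their 95% intervals, -0.65 to 0.29 and -0.53 to 0.08, include 0.

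Genes known to respond to vitamin D in other tissues had a median of 0.07, with 12 of 22 higher. The sign turned without depletion replicate 1 (-0.04, 10 of 22 higher) and without replicates 1 and 2 (-0.04, 9 of 22). Atp2b1, the plasma membrane calcium pump, was at 2.98, 2.27, 2.40, 2.53, 2.20 and 2.45 on depletion arrays 1 to 6 and at 2.12, 2.30, 2.08 and 2.16 in control. Depletion replicate 1 was its highest array, depletion replicates 2 and 5 lay inside the control range, and the difference of 0.42 ± 0.17 was 0.28 without replicate 1. Kl, the Klotho coreceptor, differed by -0.65 ± 0.27 at a level of -6.84 in control, and by -0.48 without depletion replicates 1 and 2. Vitamin D response elements were searched as direct repeats of AGGTCA or GGTTCA, or of one of each, spaced by 3 bases, on either strand. They were in 13 of 27457 promoters (0.0473%), and in 0 of the 11 promoters of vitamin D metabolism genes and 0 of the 15 of responsive genes that were matched, which says only that these letters are not in those windows.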

How the data were processed

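RNA of 14 plantaris muscles was labelled with Cy3 and read on Agilent rat arrays. Per the file headers, the deposited scanner files hold spot intensity made by the authors with Agilent Feature Extraction 11.5.1.1 and protocol GE1_1105_Oct12, background-subtracted within each array, with probe positions on rn4. The authors' deposited series table holds log2 values, for which the submitters' processing notes name limma without a version; their scale and centring are not stated, and it was used as an alternative only.

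Here log2 processed signal was taken relative to each array's 75th percentile, with outlier-marked spots (0.669% to 1.05% of spots) left out, no spot saturated and spots of a probe averaged. Of 30367 probes, 18883 were named by accession and 3311 by symbol through a RefSeq gene table, 1699 kept the file's name and 6474 had none. A probe was kept where 4 or more of the 14 arrays read it well above background and each group had 2 or more values (309 lacked a value on at least 1 array), and the brightest probe stood for a gene.

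All 14 arrays were fitted with diet and slide in limma 3.58.1 (R 4.3.3), with Benjamini-Hochberg adjustment over probes and a threshold of 0.05. The fit was tested on simulated data. Named genes were the 12 per direction with the smallest p that were well above background on all 10 arrays, of 1 sign within slides 1, 2 and 4 and not predicted loci. To these were added 3 members of each of the 12 lists of at least 8 measured genes with the widest median (the liver list, made after the data were seen, was not among those ranked), and 8 vitamin D genes; genes outside this rule were chosen after their values were seen. Some genes that the rule names are not reported here. No gene had a probe not well above background on every array of 1 diet and well above on every array of the other. Members and lists were chosen with earlier results of these data known. Alternatives covered background correction (normexp, offset 50), scaling, source of values, slide, replicate number, filters, array weights and each array left out; settings without depletion replicates 1 and 2 were added after the data were seen. Plots used matplotlib 3.10.9 under Python 3.11.15, with pandas 2.3.3 and numpy 2.4.6.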

Additional observations from a re-analysis of the deposited data

Results flagged for a closer look

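Of 150 group values checked over named genes and list means, 6 had 1 array far from the others of its diet; chance alone flags about 1 in 20 groups. In control, Plat was at 0.013 on replicate 2, with the nearest other array at 0.22, and Ankrd2 was at 5.67 on replicate 3, with the nearest at 4.39. After depletion, Cxcl10 was at -1.66 on replicate 5, with the nearest at -3.97, Rxrb was at -0.131 on replicate 1, with the nearest at 0.088, and Rxrg was at 2.99 on replicate 3, with the nearest at 2.32. The mean deviation of the MHC and antigen presentation list was -0.35 on depletion replicate 6, with the nearest at 0.040.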

How the results depend on the processing

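No alternative called a probe, and without depletion replicate 1 limma called 0 as well, with or without the slide term. Of 63 named genes, 52 kept their sign in all 27 settings, 1 turned only when single arrays were left out and 10 under other settings. Without depletion replicates 1 and 2 and with no slide term, Chst4 was at 0.12, Tbc1d24 at 0.023, B4galnt1 at 0.17, Ttr at -0.031, Alb at -0.29, RT1-DMa at -0.060, Vdr at 0.13 and Pth1r at 0.28. Fcgr3a was at -0.053 with normexp. Single arrays left out moved Rxra from -0.18 to 0.0048 and Cyp27b1 from -0.10 to 0.039. Whether equal replicate numbers pair the muscles cannot be told from these arrays. Same-numbered control and depletion arrays deviated with correlations of 0.35, -0.43, 0.24 and -0.24, and 2 of 8 arrays correlated best with their own number. Slide effects remained in these deviations, and only the arrays numbered 1 shared a slide. With the replicate number as a block in place of slide, limma called 0 probes, with 325 higher and 994 lower at an unadjusted p under 0.05, and Cyp27b1 was at 0.0017. The limits are the number of arrays, slides 3 and 5 without control, and dim signal: the differences of Gnat3, Cxcl1 and Ccl3 were smaller on the authors' values or after normexp; the cause was not tested.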
